A study of Mus musculus with 4 samples.

Results

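The genes described here are 10 transcription factors and co-activators that set up or maintain the B lineage, Pax5, Ebf1, Ikzf1, Ikzf3, Tcf3, Foxo1, Pou2af1, Spib, Irf4 and Bach2. They were taken by name, as every array probe that is not a control and whose transcript accession belongs to one of these genes. This gave 19 probes, each printed as 1 spot, out of 56605 probes, and 10 genes out of 22911 named ones. The study injected GFP+ hematopoietic progenitors (HPCs) carrying Bcr-Abl, the fusion kinase of chronic myelogenous leukemia, under the skin in Matrigel, and compared the cells of the resulting tumors between wild type (Wt) and Sipa1-/- recipients. Sipa1 encodes a GTPase-activating protein that turns off the small GTPase Rap1. All recipients were C57BL/6Ncr mice labelled 8 weeks of age, either Wt or Sipa1-/-, and all received the same Bcr-Abl+ GFP+ cells, made from bone marrow of B6 mice. On day 12 the tumors were digested and 2 populations were sorted, mesenchymal stroma cells (MSCs) as GFP- CD45- Ter119- CD31- cells and CD8+ T cells as GFP- TCRb+ CD8+ cells. The MSC gate is thus defined only by markers that the cells lack. The labels give 5 mice per genotype and 1 array per population and genotype, and whether RNA of several mice was pooled is not given in the sources used here.

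B-cell development runs on a layered network of transcription factors. The E protein encoded by Tcf3 and the forkhead factor Foxo1 act early and switch on Ebf1, and Ebf1 in turn switches on Pax5, which commits progenitors to the B lineage and holds other fates off. Ikaros (Ikzf1) and Aiolos (Ikzf3) are zinc finger proteins with wider use in lymphocytes, both B and T, whereas Pou2af1 is a co-activator that works with octamer-binding proteins, Spib is an Ets factor, and Irf4 and Bach2 act at later decisions, Irf4 toward light chain rearrangement and plasma cells and Bach2 against the plasma cell program. Several of these genes are also used outside the B lineage. Ebf1 is expressed by bone marrow and adipose stroma, and Foxo1 by most cell types including T cells. Irf4 is expressed by activated T cells and Bach2 by memory T cells.

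Each array value below is a log2 signal, the log2 of the background-corrected spot intensity minus the 75th percentile of that array, so a value of 0 is the level that 75% of the spots do not reach. Probes differ in how strongly they bind, so signals of different probes were not set against each other outside sums over gene lists. Such sums are carried most by the brightest probes. With 1 array per condition no difference has a replicate check, no test was possible, and the number of arrays limits the precision. Genes and probes were counted where their ratio was at least 2-fold, that is 1 on the log2 scale. Among probes printed on 10 spots the SD within an array was 0.040 to 0.045 on the log2 scale, which measures the printing and scanning and not the biology. The 75th percentile stood 16.4 to 19.7 times above the median background on the 4 arrays, and 60.3% to 65.3% of spots were well above background. Both Sipa1 probes were dimmer on each Sipa1-/- array, at log2 signals of 1.46 and 3.78 against 3.05 and 5.03 in MSCs and of 1.39 and 3.73 against 3.43 and 5.40 in CD8+ T cells.

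The labels of the populations were read against marker genes. On the CD8+ T arrays the summed signal of 12 T cell genes was 576 (Wt) and 595 (Sipa1-/-) times the 75th percentile, against 21.6 and 4.54 on the MSC arrays, where Cd8a was not well above background in Wt. The 1 gene Cd2, an adhesion molecule that other lymphocytes also carry, made up 16.9 and 1.47 of the MSC sums, which were 4.66 and 3.07 without it. The 12 stroma markers summed to 1061 (Wt) and 1660 (Sipa1-/-) on the MSC arrays and to 275 and 370 on the CD8+ T arrays. Thy1 gave a large part of the CD8+ T sums, with log2 signals of 7.37 and 7.46 there against 5.41 and 6.55 in MSCs. Vim was also bright in CD8+ T cells, at 5.69 and 5.60. These CD8+ T sums are thus not a measure of stroma RNA alone. The Wt MSC array carried RNA of the B lineage as well. The paper reports that Bcr-Abl+ HPCs placed under the skin were biased toward B-lineage differentiation. It also reports more B cells relative to GFP+ tumor cells in Sipa1-/- than in Wt tumors, on a later day than these arrays. For its sorted MSC population the paper states that GFP+ cells were only a trace. Which cells gave the B-lineage RNA was not tested. Its 16 genes of pro-B and pre-B cells summed to 742, against 41.6 on the Sipa1-/- MSC array and 82.0 and 68.5 on the CD8+ T arrays. Of these genes, Il7r was the brightest in CD8+ T cells, with log2 signals of 5.55 in Wt and 5.40 in Sipa1-/-. In MSCs Il7r read 3.58 in Wt and -0.58 in Sipa1-/-. The CD8+ T sums thus lean on Il7r, and their place above 41.6 does not show more B-lineage RNA. Ptprc, which encodes the CD45 used to exclude leukocytes, had log2 signals of 0.76 in Wt and -0.55 in Sipa1-/- MSCs, and of 4.38 in Wt and 4.48 in Sipa1-/- CD8+ T cells. In bulk samples of this kind, fewer cells of a type and less RNA per cell cannot be told apart.

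In MSCs all 10 B-lineage factors were lower in the Sipa1-/- array than in the Wt array, each by at least 2-fold, where 11.3% of the 15298 genes measured in both MSC arrays were lower by that much. The median log2 ratio of the 10 genes was -2.34, and that of all measured genes was 0.04. At the level of probes, 15 of the 18 that passed the spot flags on both arrays were at least 2-fold lower (11.6% of all probes), the other 3 lay between -0.82 and -0.97, all 18 were below 0, and 0 were at least 2-fold higher (16.6% of all probes). The sizes ran from Pou2af1 at -4.48 to Ebf1 at -1.03. Markers of some other lists were lower as well. In Sipa1-/- MSCs 15 of 15 measured pro-B and pre-B genes and 11 of 12 pan-leukocyte genes were at least 2-fold lower. The median log2 ratio of the pan-leukocyte genes was -2.19, near that of the 10 factors. The summed pan-leukocyte signal was 210 in Wt and 54.8 in Sipa1-/- MSCs. The part of any of these cells in the result was not tested.

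**Figure D1:**
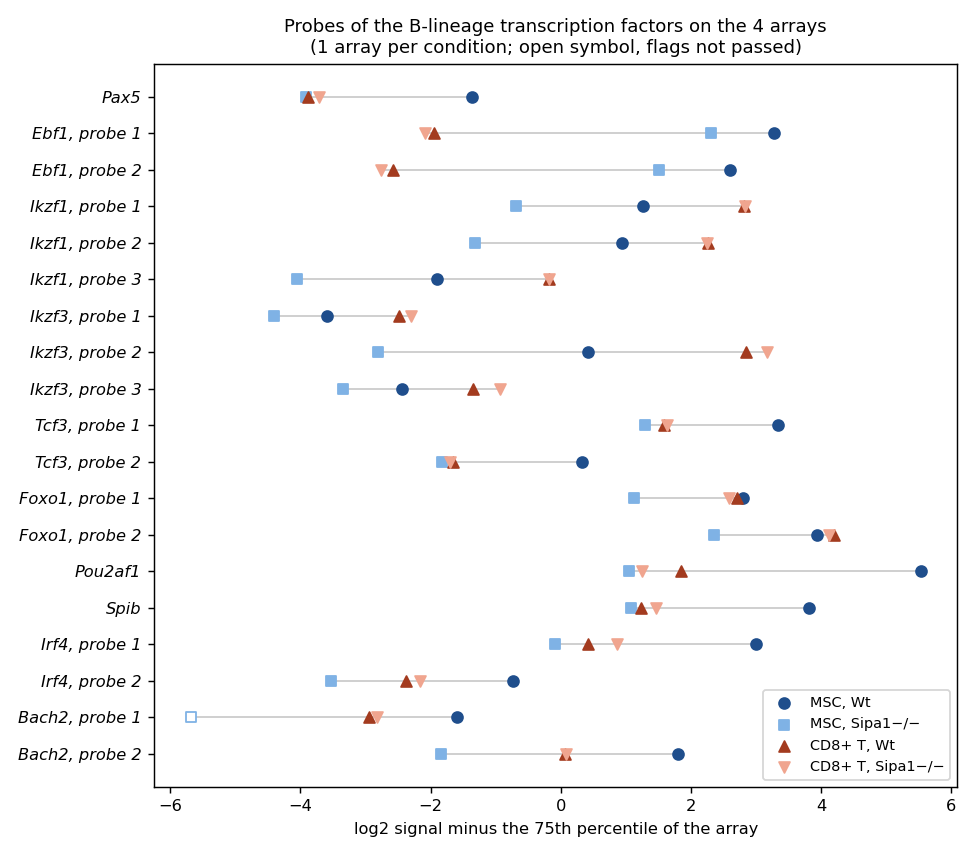
Log2 signal of the 19 probes of the B-lineage transcription factors on the 4 arrays, relative to the 75th percentile of each array (horizontal axis), with 1 symbol per array and the open symbol for a spot that did not pass the flags. The Wt MSC array is the brightest for Pax5, Ebf1, Tcf3, Pou2af1, Spib, Irf4 and Bach2, and the CD8+ T arrays are brightest for Ikzf1 and Ikzf3.

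The factors that specify and commit the lineage came first. Pax5 (GRCm38.p6 chr4:44524748-44710694), which commits progenitors to the B lineage, had log2 signals of -1.36 in Wt MSCs, -3.91 in Sipa1-/- MSCs, -3.87 in Wt CD8+ T cells and -3.72 in Sipa1-/- CD8+ T cells. Only the Wt MSC array stood out, and the other arrays lay within 0.20 of each other. On those arrays this single probe read 30.5 intensity units in Sipa1-/- MSCs and 28.3 and 28.7 in Wt and Sipa1-/- CD8+ T cells. These units are after background correction, and the median background itself was 23 to 24. The probe passed the flags on all 4 arrays, but at such low intensity the closeness does not show equal levels. The MSC log2 ratio of Sipa1-/- over Wt was -2.55, a 5.86-fold difference, and -1.48 where the background was corrected anew with normexp. That correction adds an offset of 50 units to each spot, which by itself draws ratios of dim probes toward 0.

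Tcf3 (chr10:80409541-80433976), whose E proteins start the program, showed the same shape on its 2 probes. The first read 3.34, 1.29, 1.59 and 1.63 in Wt MSCs, Sipa1-/- MSCs, Wt CD8+ T cells and Sipa1-/- CD8+ T cells. The second read 0.32, -1.82, -1.66 and -1.71 in the same order. Both probes set the Wt MSC array above the other 3, with MSC ratios of -2.05 and -2.14 and a gene ratio of -2.10.

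Foxo1 (chr3:52268337-52350109), a forkhead factor needed for the recombination genes and also abundant in resting T cells, had a different order. Its first probe read 2.80 in Wt MSCs, 1.13 in Sipa1-/- MSCs, 2.71 in Wt CD8+ T cells and 2.58 in Sipa1-/- CD8+ T cells, and its second 3.93, 2.35, 4.20 and 4.12. Here the Sipa1-/- MSC array was the one that stood apart, below the other 3. The MSC ratio was -1.63, a 3.08-fold difference.

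Ebf1 (chr11:44618100-45008096), the factor upstream of Pax5 that stroma also uses, differed least between the MSC arrays. Its first probe read 3.28 in Wt MSCs, 2.30 in Sipa1-/- MSCs, -1.94 in Wt CD8+ T cells and -2.08 in Sipa1-/- CD8+ T cells, and its second 2.60, 1.51, -2.57 and -2.77. Both MSC arrays were far above both CD8+ T arrays, and the Sipa1-/- MSC array kept most of the distance. The MSC ratios of the probes were -0.97 and -1.09 and that of the gene was -1.03, at the 2-fold threshold. Over 8 other ways of scaling, filtering or choosing probes the Ebf1 ratio ran from -1.17 to -0.83, so that it was lower in each but not always by 2-fold.

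The Ikaros family was read by 3 probes per gene. For Ikzf1 (chr11:11684962-11772930), the first probe read 1.27 in Wt MSCs, -0.69 in Sipa1-/- MSCs, 2.81 in Wt CD8+ T cells and 2.83 in Sipa1-/- CD8+ T cells. The other two gave 0.94, -1.32, 2.26 and 2.24, and -1.89, -4.05, -0.18 and -0.18. All 3 put both CD8+ T arrays highest and the Sipa1-/- MSC array lowest, with MSC ratios of -1.96, -2.26 and -2.16.

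For Ikzf3 (chr11:98464610-98546031), the bright probe read 0.42 in Wt MSCs, -2.80 in Sipa1-/- MSCs, 2.85 in Wt CD8+ T cells and 3.17 in Sipa1-/- CD8+ T cells. The dim ones gave -3.58, -4.41, -2.48 and -2.31, and -2.45, -3.34, -1.35 and -0.93. The order of the arrays was again the same on all 3, but the sizes were not, since the bright probe had an MSC ratio of -3.23 and the dim ones -0.82 and -0.89. After background correction the dim probes read 39.4 and 86.7 intensity units in Wt MSCs and 21.6 and 45.4 in Sipa1-/- MSCs. The bright one went from 633 to 65.9. The median background itself was about 24. The gene ratio was -1.65 as the mean over probes, -3.23 with the brightest probe alone and -1.07 with normexp.

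The co-activator and the later factors had the largest MSC differences. Pou2af1 (chr9:51213690-51240079), the co-activator of octamer-binding proteins that B cells need for germinal centers, had log2 signals of 5.53 in Wt MSCs, 1.05 in Sipa1-/- MSCs, 1.85 in Wt CD8+ T cells and 1.25 in Sipa1-/- CD8+ T cells. The Wt MSC array was far above the rest, at 21835 intensity units against 949.9 in Sipa1-/- MSCs. The MSC ratio was -4.48, or 22.4-fold, and 0.14% of measured genes had a lower one.

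Spib (chr7:44525995-44532087), an Ets factor of B cells and plasmacytoid dendritic cells, read 3.81 in Wt MSCs, 1.08 in Sipa1-/- MSCs, 1.23 in Wt CD8+ T cells and 1.47 in Sipa1-/- CD8+ T cells. As with Pax5, only the Wt MSC array was set apart. The MSC ratio was -2.73, a 6.63-fold difference.

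Irf4 (chr13:30749233-30766981), which pairs with Ets factors and later drives plasma cells, had log2 signals of 2.99, -0.09, 0.42 and 0.87 on its first probe, in Wt MSCs, Sipa1-/- MSCs, Wt CD8+ T cells and Sipa1-/- CD8+ T cells. Its second probe read -0.74, -3.53, -2.38 and -2.16. Both probes put Wt MSCs highest and Sipa1-/- MSCs lowest, with MSC ratios of -3.09 and -2.79.

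Bach2 (chr4:32238413-32586109), a repressor that delays plasma cell differentiation, had a bright probe that read 1.79 in Wt MSCs, -1.84 in Sipa1-/- MSCs, 0.06 in Wt CD8+ T cells and 0.09 in Sipa1-/- CD8+ T cells. The Wt MSC array was highest and the Sipa1-/- MSC array lowest, with a ratio of -3.64, or 12.4-fold. The dimmer probe read -1.60, -5.69, -2.95 and -2.82 and was not well above background in Sipa1-/- MSCs, so it gives a bound there, at least 17.0-fold lower than in Wt MSCs. The Bach2 gene ratio in MSCs therefore rests on 1 probe.

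Start regions of members at both ends of this range are shown, because the members moved in 1 direction in MSCs but by very different amounts. The RefSeq table of GRCm38.p6 held start regions for 9 of the 10 genes, at 11 starts, and had no entry for Ikzf3. The 250 bases before the start are given 5′ to 3′ on the strand of the gene. Pou2af1 (chr9:51213440-51213689, plus strand) and Bach2 (chr4:32417185-32417434, plus strand, inside the gene) had the lowest MSC ratios, and Foxo1 (chr3:52268087-52268336, plus strand) and Ebf1 (chr11:44617850-44618099, plus strand, the upstream of its 2 starts) had those closest to 0. Capitals mark matches, on either strand, to 7 motifs that were searched for.
Pou2af1: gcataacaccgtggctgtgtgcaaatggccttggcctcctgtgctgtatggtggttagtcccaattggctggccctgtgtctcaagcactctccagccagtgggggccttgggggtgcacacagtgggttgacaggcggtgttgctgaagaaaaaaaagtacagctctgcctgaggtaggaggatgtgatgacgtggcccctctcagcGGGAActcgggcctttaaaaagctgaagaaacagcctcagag
Bach2: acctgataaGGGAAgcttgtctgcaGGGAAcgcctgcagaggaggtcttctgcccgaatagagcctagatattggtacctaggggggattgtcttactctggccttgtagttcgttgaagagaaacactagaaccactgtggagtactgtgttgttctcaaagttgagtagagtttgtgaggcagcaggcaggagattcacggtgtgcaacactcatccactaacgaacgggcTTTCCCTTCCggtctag
Foxo1: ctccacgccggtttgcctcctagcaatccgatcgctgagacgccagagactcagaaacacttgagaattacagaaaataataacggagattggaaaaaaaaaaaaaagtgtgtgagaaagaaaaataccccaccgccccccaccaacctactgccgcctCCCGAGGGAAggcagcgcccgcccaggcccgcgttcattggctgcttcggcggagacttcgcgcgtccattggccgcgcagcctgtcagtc
Ebf1: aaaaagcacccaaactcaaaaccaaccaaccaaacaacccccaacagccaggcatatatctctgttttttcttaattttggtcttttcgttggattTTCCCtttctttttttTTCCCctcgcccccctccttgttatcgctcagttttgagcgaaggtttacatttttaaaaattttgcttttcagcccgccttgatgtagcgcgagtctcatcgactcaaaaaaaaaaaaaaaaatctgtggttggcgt

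The motif of the Ikaros core, GGGAA, was found before a start of 6 of the 9 genes, Bach2, Ebf1, Foxo1, Ikzf1, Pax5 and Pou2af1, and in 56.2% of all 32851 start regions. It is the capital match in Pou2af1 and, as TTCCC on the other strand, in Ebf1, and the first 2 matches in Bach2. The palindrome of Ebf1, CCCNNGGG, was found in Foxo1, Ikzf1 and Spib, and in 11.8% of all start regions. In Foxo1 it overlaps a GGGAA, and together they form the capital run. The composite site of Ets and Irf factors, read as GGAA, any 2 bases and then GAAA, was found in Bach2 alone of the members, on the minus strand from base -17 to base -8 before the start and overlapping the third GGGAA, and in 2.30% of all start regions. The E-box CAGNTG was found in Spib alone, and in 44.8% of all. No member had the octamer ATGCAAAT (1.60% of all), the forkhead site TGTTTAC (3.17%) or the core TGANTCA of Bach and Maf factors (6.75%) in these windows. Each match describes letters in the sequence and is not a mapped binding site.

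The paralogs of the members differed in both directions in MSCs. Of 23 measured paralogs, 7 were at least 2-fold higher in Sipa1-/- MSCs (19.3% of all genes were) and 2 at least 2-fold lower (11.3% were). Their median log2 ratio was 0.10, a value whose sign turned under 4 of the 8 alternatives. With normexp 4 were higher and 1 lower by 2-fold, and with a median shift 4 and 3. The Ebf family split. Ebf2 and Ebf3, paralogs of Ebf1 that mark adipose and bone stroma, had log2 signals of -0.68 and -2.76 in Wt MSCs and 1.58 and -1.03 in Sipa1-/- MSCs, ratios of 2.26 and 1.73, while Ebf1 was lower. Foxo6 was higher by 2.04 where Foxo1 was lower, and Foxo3 had a ratio of -0.12. Among the Ikaros family, Ikzf2, best known from regulatory T cells, had a ratio of 1.59 and Ikzf4 one of 1.05, but with normexp these were 0.60 and 0.57. The E protein genes Tcf4 and Tcf12 had ratios of 0.86 and -0.32. The paralogs that were at least 2-fold lower were Irf5 at -2.30 and Spic, an Ets factor related to Spib, at -1.02, which was -0.36 with normexp. Irf8, a partner of Ets factors in B cells and myeloid cells, had a ratio of -0.77, and Bach1 had a ratio of 1.13.

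Partners and inhibitors of the members also differed in both directions. Of 15 measured, 5 were at least 2-fold lower in Sipa1-/- MSCs (11.3% of all genes were) and 3 at least 2-fold higher (19.3% were). The share that was higher was thus near that of all genes. Their median was -0.59, and with normexp 3 were lower and 2 higher. Those lower were Lef1 (-4.61), a lymphoid factor of pro-B and T cells, Myb (-3.34), a factor of hematopoietic progenitors, Bcl11a (-2.60), needed for early B cells, Pou2f2 (-2.42), the octamer-binding partner of Pou2af1 in lymphocytes, and Mef2c (-1.15). The widely expressed octamer-binding gene Pou2f1 had a ratio of -0.94. Those higher were Id4 (2.36) and Id2 (1.77), whose proteins bind E proteins and block them, and Bcl6 (1.49), a repressor of germinal center B cells that other cells also use. With normexp the ratios of Pou2f2 (-0.88), Mef2c (-0.88) and Id4 (0.67) were under 2-fold. Id3 had a ratio of 0.60. Tcf3 had a ratio of -2.10 where its inhibitors Id2 and Id4 were above 0, and a link between them was not tested.

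All 15 measured genes of pro-B and pre-B cells, which the network is known to activate, were at least 2-fold lower in Sipa1-/- MSCs, with a median of -4.26 and a range from -5.80 to -1.91. Rag2 had a ratio of -5.80 (-3.46 with normexp), the terminal transferase gene Dntt -4.71, the surrogate light chain gene Igll1 -4.69 and Fcrla -4.59. Rag1, the 16th gene, read -1.25 in Wt MSCs and was not well above background in Sipa1-/- MSCs. Of 12 mature B cell genes, 7 were at least 2-fold lower and 0 higher (11.3% and 19.3% of all genes were), with a median of -1.85. Siglecg (-4.00), Cxcr5 (-3.67), H2-Ob (-3.57) and Cd37 (-3.56) were the lowest, and Cd83 (0.45) and Ciita (0.34) were above 0. Of the 10 factors, Pou2af1 alone had a ratio below the median of the pro-B and pre-B genes.

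Over all genes measured in both MSC arrays, 11.3% were at least 2-fold lower and 19.3% at least 2-fold higher. Plasma cell genes did not move together. Of 7 measured, 2 were at least 2-fold lower, Slamf7 (-4.23) and Mzb1 (-4.08), and 2 at least 2-fold higher, Sdc1 (1.92) and Jchain (1.44). The factors that drive plasma cells with Irf4, Prdm1 and Xbp1, had ratios of 0.09 and 0.91. Genes that Pax5 is known to repress gave a median of 0.60 over 10 genes. Here 3 were at least 2-fold higher, Emb (2.12), Jchain (1.44) and Cd28 (1.19), and 1 at least 2-fold lower, Grap2 (-1.85). With normexp Cd28 and Grap2 were under 2-fold. For so few genes these counts are not far from the shares of all genes. A link to the lower Pax5 signal was not tested. Stroma factors went the other way from the members: 7 of 11 measured were at least 2-fold higher and 1 lower, with a median of 1.67. Nr2f1 had a ratio of 2.24 and Foxc1 one of -1.57. Of the 11 measured stroma markers, 5 were at least 2-fold higher and 0 lower. For dendritic cells, where Spib and Irf4 are also used, 1 of 11 measured genes was higher and 1 lower by 2-fold, with a median of 0.06, which turned below 0 under 2 of the 8 alternatives.

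**Figure D2:**
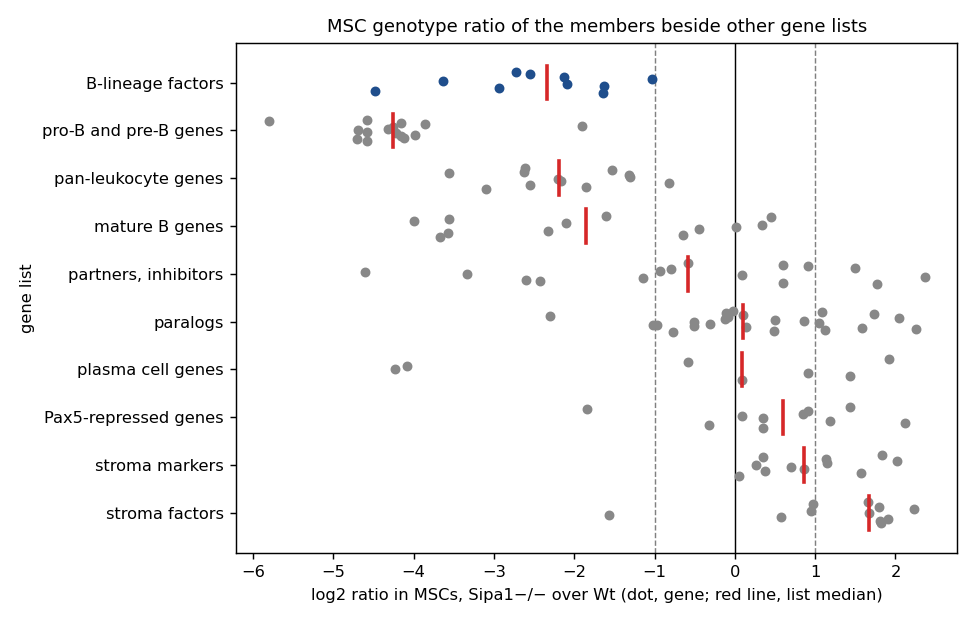
Log2 ratio of Sipa1-/- over Wt in MSCs (horizontal axis) for the genes of 10 lists, with a dot per gene, a red line at the list median and dashed lines at the 2-fold thresholds. The 10 B-lineage factors lie between -4.48 and -1.03 with a median of -2.34, near the pan-leukocyte genes (median -2.19). The mature B genes have a median of -1.85, the pro-B and pre-B genes one of -4.26 and the paralogs one of 0.10.

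In CD8+ T cells none of the 10 factors differed by 2-fold between the genotypes, where 1.4% of the 14339 measured genes were at least 2-fold lower and 2.66% at least 2-fold higher. This held for 0 of 19 probes in either direction (1.17% and 2.03% of all probes). The median log2 ratio of the 10 genes was 0.04, and that of all measured genes was -0.02. Since each population has 1 array per genotype, this does not show that the levels were equal. Pou2af1 was the member farthest from 0, at -0.60, with log2 signals of 1.85 in Wt and 1.25 in Sipa1-/-. Irf4 and Ikzf3 followed on the other side at 0.33 and 0.30, with both Irf4 probes (0.45 and 0.22) and all 3 Ikzf3 probes (0.17, 0.32 and 0.42) above 0. Spib had a ratio of 0.24 and Ebf1 one of -0.17.

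Several members that T cells are known to express lay close to 0. The 3 Ikzf1 probes had CD8+ T ratios of 0.02, -0.03 and 0.00, the Foxo1 probes -0.12 and -0.08, and the bright Bach2 probe 0.03. The Tcf3 probes gave 0.04 and -0.05 and Pax5 gave 0.16, and the signs of Pax5, Ikzf1, Tcf3, Foxo1 and Bach2 turned under at least 1 alternative, with values between -0.25 and 0.29. Most of their relatives were like them, with 1 of 20 measured paralogs past 2-fold (Ikzf2 at -1.01, and under 2-fold with normexp, quantile normalization and the series matrix) and 0 of 15 partners. Of the 14 measured pro-B and pre-B genes, 4 were at least 2-fold lower in Sipa1-/- CD8+ T cells. These were Igll1 (-2.21), Vpreb1 (-2.04), Vpreb3 (-1.82) and Vpreb2 (-1.73), the genes of the surrogate light chain of the pre-B receptor and their relative Vpreb3, while Cd79a had a ratio of 0.05. Mature B genes had a median of 0.27 and pan-leukocyte genes one of -0.11, with 0 of 12 past 2-fold in each. Other lists did move between these arrays, as 8 of 12 stroma markers were at least 2-fold higher and 6 of 9 granulocyte and 5 of 6 erythroid genes at least 2-fold lower in Sipa1-/-, and their part in the members' values was not tested.

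**Figure D3:**
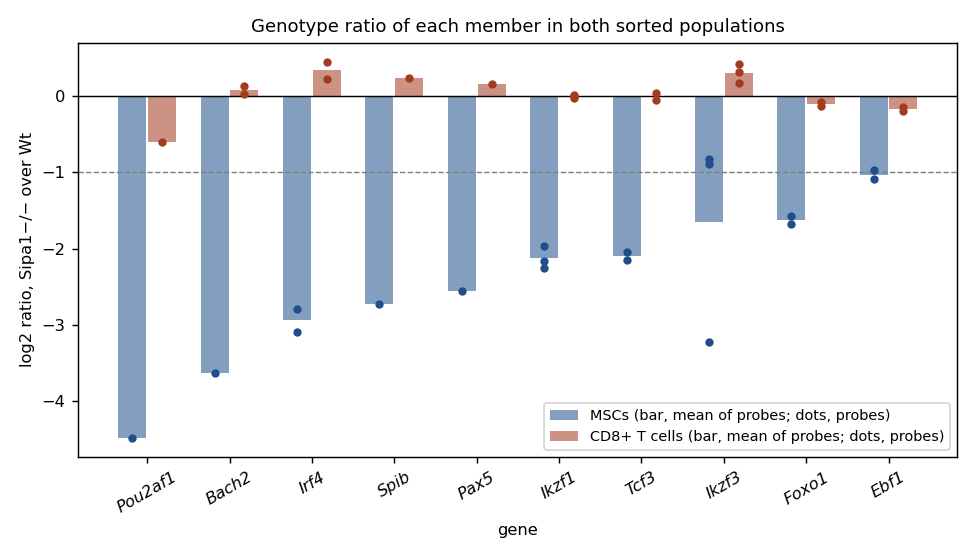
Log2 ratio of Sipa1-/- over Wt for each of the 10 genes in MSCs (blue) and CD8+ T cells (red), with bars for the mean over probes that passed the flags, dots for single probes and a dashed line at 2-fold lower. All MSC bars lie between -4.48 and -1.03, and the CD8+ T bars lie between -0.60 and 0.33.

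The MSC ratio was lower than the CD8+ T ratio for all 10 genes, by -0.87 for Ebf1, -1.52 for Foxo1, -1.95 for Ikzf3, -2.09 for Tcf3 and -2.12 for Ikzf1. For the others the difference of the ratios was -2.71 for Pax5, -2.96 for Spib, -3.28 for Irf4, -3.71 for Bach2 and -3.88 for Pou2af1. With 1 array per condition this difference could not be tested.

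Comparing the populations within a genotype showed which factors set the MSC array apart from T cells; these comparisons share their arrays with those between genotypes. In Wt, 7 of the 10 factors were at least 2-fold higher on the MSC array than on the CD8+ T array (17.3% of 14225 measured genes were) and 2 at least 2-fold lower (12.8% were). Of the 19 probes, 11 were higher (12.7% of all probes) and 6 lower (13.7%). Ebf1 led with a log2 ratio of 5.20, followed by Pou2af1 (3.68), Spib (2.57), Pax5 (2.51), Irf4 (2.11), Tcf3 (1.87) and Bach2 (1.54). Ikzf1 at -1.53 and Ikzf3 at -1.54 were lower, and Foxo1 at -0.09 was level within 2-fold.

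In Sipa1-/- tumors, 1 of the 10 was at least 2-fold higher on the MSC array (21.9% of 14300 measured genes were) and 5 at least 2-fold lower (18.7% were). Of 18 probes, 2 were higher (16.5% of all probes) and 10 lower (22.1%). The gene that was higher was Ebf1, at 4.33. Those lower were Ikzf1 (-3.65), Ikzf3 (-3.49), Bach2 (-1.93), Foxo1 (-1.61) and Irf4 (-1.17), the last of which lay between -0.97 and -0.64 under 3 alternatives. Pax5, Pou2af1, Tcf3 and Spib, which had all been higher in Wt, lay between -0.39 and -0.20 in Sipa1-/-. With the constants of the authors' value table these 4 turned to between 0.14 and 0.33, so their sign here depends on the scaling. The median of the 10 genes was 1.99 in Wt and -0.78 in Sipa1-/-, beside -0.06 and -0.18 for all measured genes.

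**Figure D4:**
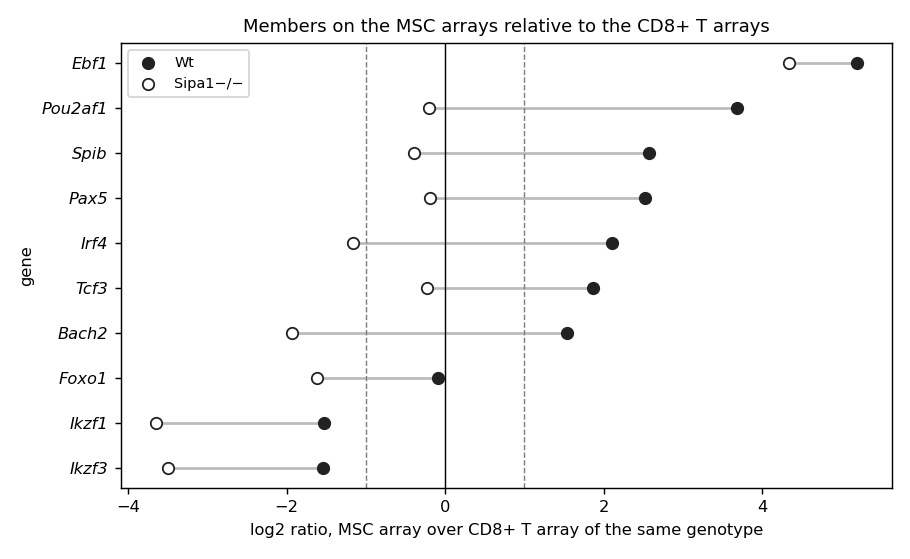
Log2 ratio of the MSC array over the CD8+ T array of the same genotype (horizontal axis) for the 10 genes, with filled points for Wt, open points for Sipa1-/- and dashed lines at the 2-fold thresholds. Ebf1 stays at the right in both genotypes (5.20 and 4.33), and Pou2af1 moves from 3.68 to -0.20.

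The profile of each member over the 4 arrays was compared with those of 13766 genes measured on all of them, as the distance between log2 signals after each gene was centered on its own mean. With 4 arrays many genes lie close by, so the distances are a description. Pax5 and Spib were each other's nearest gene, at a distance of 0.15, although the Pax5 probe was dim outside Wt MSCs. Stambpl1 (0.16) and Tnfrsf19 (0.21) followed for Pax5, and Syk (0.24), a kinase of the B cell receptor, and Tnfrsf19 (0.27) for Spib. Irf4 lay nearest to Tnfrsf13c (0.24), which encodes a receptor for the B cell survival factor BAFF, Fam53b (0.25) and Plxdc1 (0.31). Pou2af1 lay nearest to Cd93 (0.32), Endou (0.46) and Niban3 (0.50), and Bach2 to Trp53i11 (0.14), Tspan13 (0.29) and Aldh1b1 (0.35). Ikzf1 lay nearest to Rac2 (0.11), a GTPase of hematopoietic cells, Arhgap27 (0.14) and Zfhx2 (0.16), and Ikzf3 to Stap1 (0.09), Dock8 (0.10) and Matk (0.12). Tcf3 lay nearest to 4933439K11Rik (0.12), Arhgef39 (0.16) and H1f1 (0.19), and Foxo1 to Dnajc2 (0.04), Lbr (0.06) and Dnajc7 (0.07).

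Ebf1 had no other member near it. Its nearest member was Pax5 at a distance of 3.77, whereas its nearest genes were Hpn (0.27), Icam4 (0.39) and Gata1 (0.42). Gata1 is the erythroid master factor and Icam4 an adhesion molecule of red cells. Gata1 had log2 signals of 3.08 in Wt MSCs, 2.53 in Sipa1-/- MSCs, -1.90 in Wt CD8+ T cells and -2.31 in Sipa1-/- CD8+ T cells, so that, like Ebf1, it was high on both MSC arrays and low on both CD8+ T arrays. Erythroid genes were bright on the MSC arrays although Ter119+ cells had been gated out, with summed signals of 614 in Wt and 659 in Sipa1-/- MSCs against 15.0 and 6.69 in CD8+ T cells. The stroma markers, with 1061 and 1660 against 275 and 370, also set both MSC arrays above both CD8+ T arrays. Thy1, which gave a large part of the CD8+ T sums, went the other way. The pro-B and pre-B genes summed to 742 in Wt and 41.6 in Sipa1-/- MSCs, against 82.0 and 68.5 in CD8+ T cells. Whether B-lineage, erythroid, stroma or other cells gave the Ebf1 signal was not tested.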

How the data were processed

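Each of the 4 conditions was read by 1 Agilent one-color mouse array, all on 1 slide and in 1 scan. The deposited scanner values are intensities that the authors' software (Agilent Feature Extraction, 12.0.3.1 per the file headers and 9.1 per the submitters' processing notes) had corrected for background, with no normalization between arrays. The authors' series matrix holds the same intensities times 1 constant per array. Transcript accessions were matched to RefSeq genes of GRCm38.p6 (57.6% of spots that are not controls). Spots had to pass the flags that the methods name for saturation, uniformity and background on both arrays of a ratio, and were averaged per probe and then per gene on the log2 scale. For each array log2 of its 75th percentile was subtracted.

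No test was possible with 1 array per condition. The named genes are all members with every probe, up to 4 per list with the largest ratios and up to 2 that went the other way, relatives and partners beside a member, and the 3 genes nearest to each member's profile. The members and lists were chosen with earlier results of these data known. Other genes named beside a result (Cd79a, Ptprc, Mef2c, Il7r) were chosen after their values were seen. In 8 alternatives the flags were asked on 1 array or not at all, dim probes under the median signal were left out, the brightest probe stood for a gene, or the scaling was changed to a median shift, quantile normalization, normexp (offset 50, median spot signals) with quantile normalization, or the series matrix. The calculation was tested on simulated data. Python 3.11.15, numpy 2.4.6, pandas 2.3.3, matplotlib 3.10.9, R 4.3.3 and limma 3.58.1 were used.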

Additional observations from a re-analysis of the deposited data

Results flagged for a closer look

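All 10 factors had a genotype ratio below 0 in MSCs. In CD8+ T cells 5 of the 10 had a ratio above 0, as did 6606 of all 14339 measured genes, a similar share. Of these 5 factors, Bach2 had a CD8+ T ratio of 0.08. That is under the limit of 0.126, which was set at 2 times the spot noise of a ratio. This noise was taken from probes printed on 10 spots, whereas each member probe has 1 spot. Passing the limit therefore does not show a biological difference. The opposite direction of the other 4 is what drew attention to them. The MSC log2 ratio minus the CD8+ T log2 ratio was -2.71 for Pax5, -1.95 for Ikzf3, -2.96 for Spib and -3.28 for Irf4. The CD8+ T ratios behind these values were small, at 0.16, 0.30, 0.24 and 0.33. Before scaling, Pax5 read 28.3 intensity units in Wt and 28.7 in Sipa1-/- CD8+ T cells. The difference between the populations was not tested, since each had 1 array per genotype. The CD8+ T ratio of Pax5 was -0.01 under 1 of the 8 alternatives, whereas those of Ikzf3, Spib and Irf4 were above 0 under all 8 alternatives.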

How the results depend on the processing

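All 10 MSC ratios kept their direction under all 8 alternatives. The median of -2.34 became -2.48 with a median shift, -2.45 with quantile normalization, -1.72 with normexp, -2.13 with the series matrix and -2.64 with the brightest probe. The number of members at least 2-fold lower was 9 in place of 10 under the last 4 of these, where Ebf1 missed the threshold. The CD8+ T median of 0.04 became -0.11 with a median shift and 0.17 with the series matrix. The median ratio of MSCs over CD8+ T cells in Wt, 1.99, became 1.76 with a median shift, 1.48 with normexp, 2.44 with the series matrix and 2.13 with the brightest probe. That in Sipa1-/-, -0.78, became -1.002, -0.61, -0.25 and -0.68 in the same order, and -0.85 with quantile normalization. A median shift and the series matrix moved the median of all genes by -0.14 and 0.21 between MSC arrays, by -0.15 and 0.13 between CD8+ T arrays, and by -0.23 and 0.45 between populations in Wt and -0.22 and 0.53 in Sipa1-/-. Among all genes past 2-fold, the share that was higher was 63.1% in MSCs, 54.1% with a median shift and 74.1% under the values of the series matrix. The CD8+ T share was 65.5%, and 52.5% with a median shift, 50.3% with normexp and 76.3% with the series matrix. Between populations it was 57.4% in Wt and 54.0% in Sipa1-/-, 45.5% and 42.9% with a median shift, and 76.6% and 76.3% with the series matrix. No paired analysis was possible because the groups share a single replicate number, with 1 array each. The dim probes of Ikzf3 and Bach2, and the Pax5 probe outside Wt MSCs, were of low intensity. Of these, the dim Bach2 probe was not well above background in Sipa1-/- MSCs. The absence of replicates limits every value here.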

Other observations

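T cell genes, which share the use of Ikzf1, Ikzf3 and Foxo1 with the B lineage, split on the MSC arrays. Of 11 measured, 4 were at least 2-fold lower in Sipa1-/- MSCs and 3 at least 2-fold higher, or 3 and 0 with normexp. Over all genes the shares were 11.3% lower and 19.3% higher before that change. Cd2, an adhesion molecule of lymphocytes, and Lat, an adaptor of the T cell receptor, had log2 ratios of -3.52 and -2.69. The receptor gene Cd3g had a ratio of 1.43, and Cd8a was not well above background in Wt MSCs.

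Ly6d, a surface marker of B-lineage progenitors that was listed among dendritic cell genes, read 2.79 in Wt MSCs and -0.28 in Sipa1-/- MSCs, a log2 ratio of -3.07. It was the 1 gene of that list that was at least 2-fold lower.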
